A study of Mus musculus with 15 samples.

Results

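The genes described here are the interleukins, the ligands of the tumour necrosis factor (TNF) superfamily and their receptors, as measured in mouse heart ventricle while the RNA-binding protein Celf1 was induced. They were chosen by symbol: every row of the deposited table whose symbol starts with Il and a digit, with Tnfrsf or with Tnfsf, together with Tnf, Lif, Lifr, Osm, Osmr and Il6st. The rule took 107 of the 16042 genes in the table. Of these, 40 were grouped as ligands and 60 as receptors, with secreted receptors such as Tnfrsf11b and Il22ra2 included. A further 2 were grouped as secreted inhibitors (Il1rn and Il18bp). The other 5, Il16 among them, carry a matching symbol and were not placed as a ligand or receptor of these families.

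Interleukins and TNF family ligands are short-range messengers between immune, stromal and muscle cells. Interleukin receptors mostly signal through Janus kinases and STAT transcription factors, whereas IL-1, IL-17 and TNF receptors recruit adaptor proteins that lead to NF-kB, stress kinases and, for receptors with a death domain, caspases. In the heart these families are known for their part in the response to injury, in which infiltrating leukocytes, fibroblasts and the muscle cells themselves send and receive the signals.

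Polyadenylated RNA of the ventricles of 15 mice aged 20 to 22 weeks was sequenced, once the atria and the tip of the apex had been cut away. All mice carried MHCrtTA, a doxycycline-dependent activator under the cardiac alpha-myosin heavy chain promoter, and all were given doxycycline in food at 2 g/kg after 2 to 3 hours without food. The 3 control mice had MHCrtTA alone and received doxycycline for 72 hours. The induced mice (MHCrtTA/TRECUGBP1) also carried a Flag-tagged LYLQ isoform of human Celf1 behind a tetracycline-responsive promoter and received doxycycline for 12 hours, 24 hours, 72 hours or 7 days, with 3 mice in each group. The comparison at 72 hours is therefore the one matched to the controls for time on doxycycline.

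Values are in RPKM: reads on a gene, divided by its length in kilobases and by the mapped reads of the library. Celf1 itself, listed under its older symbol, had 33.3 to 36.1 RPKM in the controls, 220 to 351 after 12 hours of doxycycline, 295 to 423 after 24 hours and 159 to 181 after 72 hours. In the 3 libraries labelled 7 days it had 29.5 to 37.9 RPKM, a range that includes that of the controls, so those libraries are named by their label throughout. The estimated depth was 16.4 to 51.6 M reads per column of the table. The columns carry 9 numeric codes of unstated meaning, and the 3 controls share theirs with a single induced mouse, A3278 of the 72 hour group. The code and the group therefore cannot be told apart directly in the comparisons of 12 hours, 24 hours and 7 days with control, whereas 72 hours and 7 days share 3 codes. The 4 mice with the controls' code lay above the other 11 mice in 8.3% of 10868 genes and below them in 1.48%, and among the members 2 showed this separation, Il11ra1 and Il17d.

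The 250 bases upstream of a start site of 5 members are shown because these members rose together in the libraries labelled 7 days and differ in which motifs the sequence holds. They come from RefSeq on GRCm38.p6, a newer build than the mm9 of the alignment, and are written 5′ to 3′ on the strand of the gene: Il1rn at chr2:24336610-24336859 (+), Il1r1 at chr1:40266336-40266585 (+), Tnfrsf1a at chr6:125349473-125349722 (+), Tnfrsf1b at chr4:145246871-145247120 (-) and Osmr at chr15:6874314-6874563 (-). Capitals mark a match, on either strand, to the STAT element TTCNNNGAA, the AP-1 element TGANTCA or the NF-kB consensus.
Il1rn: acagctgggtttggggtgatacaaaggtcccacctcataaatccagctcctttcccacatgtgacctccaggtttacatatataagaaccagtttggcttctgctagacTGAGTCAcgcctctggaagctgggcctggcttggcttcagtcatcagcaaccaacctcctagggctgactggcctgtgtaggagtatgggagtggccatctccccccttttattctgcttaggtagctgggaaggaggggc
Il1r1: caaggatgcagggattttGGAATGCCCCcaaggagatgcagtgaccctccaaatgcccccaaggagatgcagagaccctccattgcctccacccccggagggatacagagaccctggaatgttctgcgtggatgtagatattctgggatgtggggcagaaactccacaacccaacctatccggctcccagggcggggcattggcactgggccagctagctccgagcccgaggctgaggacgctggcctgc
Tnfrsf1a: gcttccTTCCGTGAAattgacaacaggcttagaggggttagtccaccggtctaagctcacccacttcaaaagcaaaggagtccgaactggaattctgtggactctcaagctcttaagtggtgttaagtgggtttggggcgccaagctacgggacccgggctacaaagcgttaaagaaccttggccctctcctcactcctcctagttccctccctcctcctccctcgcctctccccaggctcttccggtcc
Tnfrsf1b: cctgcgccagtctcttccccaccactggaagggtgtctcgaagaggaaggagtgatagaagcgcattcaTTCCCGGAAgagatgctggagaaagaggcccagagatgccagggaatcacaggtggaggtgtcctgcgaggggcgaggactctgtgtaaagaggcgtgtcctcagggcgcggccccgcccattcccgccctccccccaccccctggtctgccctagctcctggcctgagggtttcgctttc
Osmr: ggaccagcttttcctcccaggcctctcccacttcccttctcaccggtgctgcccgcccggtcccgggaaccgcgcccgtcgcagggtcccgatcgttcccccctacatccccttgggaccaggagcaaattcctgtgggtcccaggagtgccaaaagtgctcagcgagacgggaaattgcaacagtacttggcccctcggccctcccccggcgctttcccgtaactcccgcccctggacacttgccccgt
The capitals are an AP-1 match in Il1rn, an NF-kB match in Il1r1 and STAT matches in Tnfrsf1a and Tnfrsf1b, and the Osmr sequence holds no match to the 3 motifs in this window. Il1r1 has 2 promoters in the RefSeq table and Il1rn 3, of which those shown were taken because they hold a match, and the others hold none of the 3 motifs. Across all 32851 RefSeq promoters of that length, 7.02% held the STAT element, 6.75% the AP-1 element and 7.25% the NF-kB consensus. RefSeq promoters were matched for 84 members, which have 102 promoters in all, and 11 of these held the STAT element (10.8%), 17 the AP-1 element (16.7%) and 10 the NF-kB consensus (9.8%). Of the members that rose in the libraries labelled 7 days, 15 were matched, with 19 promoters, of which 2 held the STAT element, 2 the AP-1 element (Il1rn and Tnfsf13) and 1 the NF-kB consensus. These matches are letters in a sequence, and no binding was measured.

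In control ventricles the most abundant members were receptors. Il11ra1, the receptor for IL-11, was listed at 92.5 ± 17.2 RPKM (SD, n = 3), followed by Il10rb (54.8 ± 2.11), the shared chain of the IL-10 receptor family, and Il6st (40.0 ± 1.19), the gp130 chain through which the IL-6 family signals. Tnfrsf12a, the receptor for TWEAK, had 36.9 ± 2.39 RPKM and its range of 34.5 to 39.3 overlapped that of Il6st at 38.7 to 41.0. Il15ra (20.2 ± 2.08) and Tnfrsf1a (17.3 ± 1.34), the main receptor for TNF, came next, with ranges of 17.8 to 21.6 and 15.8 to 18.3 RPKM that overlapped. Below them stood Tnfsf5ip1 (15.2 ± 0.98), a proteasome assembly chaperone now called Psmg2 that the symbol rule takes in, and the ligand Il15 (12.6 ± 2.82), whose ranges overlapped too. The ligands were scarcer: 8 of 40 had a control mean of at least 1 RPKM, against 26 of 60 receptors. Ligands such as Il6, Lif, Osm, Tnf and Il1b stood at 0 to 0.49 RPKM in each control mouse.

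Tests were run on log2(RPKM + 1) with limma over 10868 genes with a mean of at least 1 RPKM over the 15 mice, and a member is called changed where its Benjamini-Hochberg adjusted p over all those genes was under 0.05. This filter kept 44 members and left out 63. Of the 44, 9 had a control mean under 1 RPKM and passed through the induced groups, so counts over the 44 are a description. Differences are given as log2 differences ± standard error (SE), and they understate the change of members near 1 RPKM. In the F test over the 5 groups 35 of the 44 members were called (79.5%), against 71.3% of all genes tested. The 8 members called in no test were Lifr, Il27ra, Il28ra, Tnfsf10, Tnfsf12-tnfsf13, Tnfsf13b, Il16 and Tnfsf5ip1.

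The comparison at 12 hours asks which transcripts differ soon after induction. Of the 44 members, 1 was higher (Il15) and 6 were lower (Il11ra1, Il6st, Il17rc, Tnfsf12, Il17d and Il33). Among all genes tested 0.524% were higher and 12.7% lower, and the members' 13.6% lower is close to that background. All genes tested had a median log2 difference of -0.30 at 12 hours and -0.19 at 24 hours, and the members had medians of -0.24 and -0.14. At 24 hours 3 members were higher (Il13ra1, Il20rb and Tnfrsf4), against a background of 5.38%, and 4 were lower (Il11ra1, Il3ra, Tnfrsf1b and Il17d), against 10.6%. The early counts rest on single mice: without control A3280 the 7 calls at 12 hours became 1 and the 7 at 24 hours became 0, without control A3259 they became 1 and 2, and without control A3250 they became 3 and 3. Without A3258 or A3276 the 12 hour count was 2 or 1, and without A3262 the 24 hour count was 1. Leaving out A3264 or A3345 gave 4 calls at 24 hours, and leaving out A3278 gave 11. With the column code as a term the 12 hour count was 0, and after median scaling it was 2.

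At 72 hours, with doxycycline time matched, 5 members were higher (Il1rn, Osmr, Il20rb, Tnfrsf10b and Tnfrsf4) and 1 was lower (Il15ra). The background was 6.39% higher and 5.22% lower, and the members' shares were 11.4% and 2.27%. With a term for the column code 3 members were called, all higher: Tnfrsf10b and Tnfrsf4 kept their calls, the other 4 lost theirs, and Tnfrsf12a was added. That fit reaches the controls through mouse A3278 alone, so the added call rests on that mouse, which had 101 RPKM of Tnfrsf12a. In the libraries labelled 7 days 18 members were higher (40.9%) and 7 lower (15.9%), against 26.7% and 28.2% of all genes. Of the 18, 12 had a control mean of at least 1 RPKM. In the fit with the column code 13 of the 18 and 2 of the 7 (Il10rb and Il15) kept their calls, and Tnfrsf12a was added as higher. The median log2 difference at that label was 0.30 over the members tested and -0.03 over all genes. Between 72 hours and 7 days, where the codes overlap, 18 members were higher and 11 lower, against 22.6% and 22.3% of all genes. In the fit with the column code 16 of the 18 and 9 of the 11 kept their calls, and Tnfrsf12a was added as higher. Of the 29 called members, 27 had the sign of their call within each of the 3 shared codes. The calls come from the same mice, so this count is a description. The exceptions were Il2rg (-0.14, 0.94 and 0.63) and Il1rap (1.13, 0 and 0.55). Differences within these codes are given for some of the other members as values. They are not independent, since A3264, A3281 and A3283 each have columns in 2 of the codes.

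**Figure D1:**
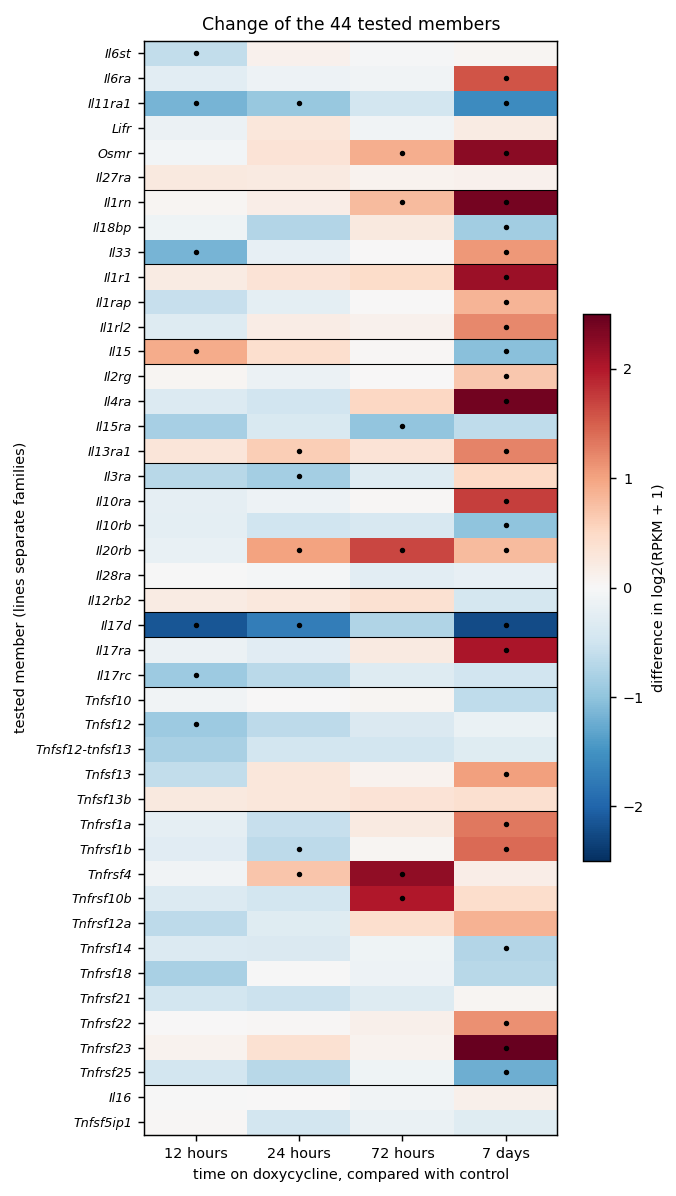
Log2 difference from control of the 44 tested members (rows, grouped by family) at each time (columns), in log2(RPKM + 1), with colours limited to the range of the scale and a dot where the adjusted p was under 0.05. The column of 7 days holds 18 dots on red and 7 on blue, and the row of Tnfrsf4 is darkest at 72 hours.

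The gp130 family was divided in the libraries labelled 7 days: 2 of its 6 receptor genes rose (Osmr and Il6ra), 1 fell (Il11ra1), and Il6st, Lifr and Il27ra did not pass the test, against 26.7% higher and 28.2% lower among all genes. Osmr, the signalling receptor for oncostatin M, had 3.35, 3.12 and 3.26 RPKM in the controls, 5.25, 8.59 and 7.48 at 72 hours and 16.6, 25.2 and 16.7 in the libraries labelled 7 days. The 3 groups did not overlap. Its log2 difference was 0.91 ± 0.20 at 72 hours (limma adjusted p = 0.00903) and 2.25 ± 0.20 in the libraries labelled 7 days (adjusted p = 1.17e-07). Without mouse A3281 the 72 hour difference was 0.78 with an adjusted p of 0.059, and with the column code as a term it was 0.56 with an adjusted p of 0.252. From 72 hours to 7 days Osmr rose by 1.70, 1.31 and 0.86 within the 3 shared codes.

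Il6ra, the chain that binds IL-6, had 0.98, 1.37 and 1.83 RPKM in the controls and 6.99, 4.80 and 6.54 in the libraries labelled 7 days. The other 12 mice had 0.49 to 1.83 RPKM, all below the lowest of these (1.57 ± 0.21, adjusted p = 1.12e-05). Il6st, with which both receptors signal, had 41.0, 40.4 and 38.7 RPKM in the controls and 39.6, 42.7 and 42.3 in the libraries labelled 7 days, a difference of 0.05 ± 0.17 (adjusted p = 0.821). Il6st was lower at 12 hours, with 20.6, 32.7 and 25.5 RPKM (-0.61 ± 0.17, adjusted p = 0.0323). After median scaling, which removes the fall of all genes at that time, that difference was -0.26 with an adjusted p of 0.428. Lifr, the receptor for leukaemia inhibitory factor, ranged from 4.18 to 9.90 RPKM over all mice and was not called at any time.

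Il11ra1 (mm9 chr4:41647021-41716347, + strand) fell from the highest level of any member. It had 73.1, 98.4 and 106 RPKM in the controls and 45.9, 46.7 and 30.0 at 12 hours. The 24 hour mice had 46.9, 52.1 and 42.0 RPKM, the 72 hour mice 90.1, 64.8 and 49.8, and the libraries labelled 7 days 26.4, 42.5 and 24.3. The 72 hour mouse at 90.1 RPKM is A3278, which shares the controls' code, and the 11 mice with other codes had 24.3 to 64.8 RPKM. The fall was -1.17 ± 0.25 at 12 hours (adjusted p = 0.0119) and -1.57 ± 0.25 in the libraries labelled 7 days (adjusted p = 5.65e-05). With the column code as a term these became -0.28 (adjusted p = 0.999) and -0.64 (adjusted p = 0.202). Mice carry a near-identical copy of this gene, so reads of the copies may be shared, and the value is uncertain for that reason too.

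Of the 7 IL-1 family receptors 3 were tested, and these 3 were higher in the libraries labelled 7 days, where 26.7% of all genes were. Il1rap and Il1rl2 had control means of 0.997 and 0.59 RPKM and means of 2.605 and 2.93 at that label. They passed the filter through those libraries, so the count of 3 is a description. Il1r1, the signalling receptor for IL-1, had 3.01, 1.79 and 1.47 RPKM in the controls and 9.95, 18.7 and 10.01 at that label, while the 9 mice of the times between had 1.99 to 3.63. The difference was 2.14 ± 0.25 (adjusted p = 2.37e-06). Its co-receptor Il1rap (0.85 ± 0.19, adjusted p = 0.0014) and the IL-36 receptor Il1rl2 (1.21 ± 0.24, adjusted p = 0.000417) rose less, and with the column code as a term they fell short of the threshold at 0.19 and 0.996 (adjusted p of 0.787 and 0.104).

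Il1rn, the natural blocker of the IL-1 receptor, rose as well. It was listed at 0 in the 3 controls, at 0.99, 0.33 and 0.96 RPKM at 72 hours and at 7.67, 3.42 and 2.83 in the libraries labelled 7 days, without overlap between these groups. Because the controls are listed at 0, the size of the difference depends on the added 1 RPKM: it was 0.79 ± 0.25 at 72 hours (adjusted p = 0.0491) and 2.399 ± 0.25 in the libraries labelled 7 days (adjusted p = 6.1e-07). The 72 hour call was lost under 17 of the 22 alternatives run for it, while the later call was kept under all 22. Il33, an alarmin stored in cell nuclei, had 5.75, 5.02 and 2.83 RPKM in the controls and 12.2, 9.38 and 9.81 in the libraries labelled 7 days (1.08 ± 0.32, adjusted p = 0.00937). Without control A3280 the adjusted p was 0.0598, and with a correction for GC content the difference was 0.57 (adjusted p = 0.202). At 12 hours Il33 was lower, with 0.52, 3.77 and 0.89 RPKM (-1.17 ± 0.32, adjusted p = 0.0312), and after median scaling that was -0.94 (adjusted p = 0.112). The groups overlapped, since mouse A3252 at 3.77 lay above the lowest control, and with the column code the adjusted p was 0.999. Il18bp, the secreted protein that neutralises IL-18, fell from 7.27, 10.97 and 9.03 to 4.78, 6.52 and 2.78 RPKM (-0.87 ± 0.25, adjusted p = 0.00745). That call was lost without mouse A3269 (-0.60, adjusted p = 0.0519) and with the column code as a term (-0.37, adjusted p = 0.613).

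**Figure D2:**
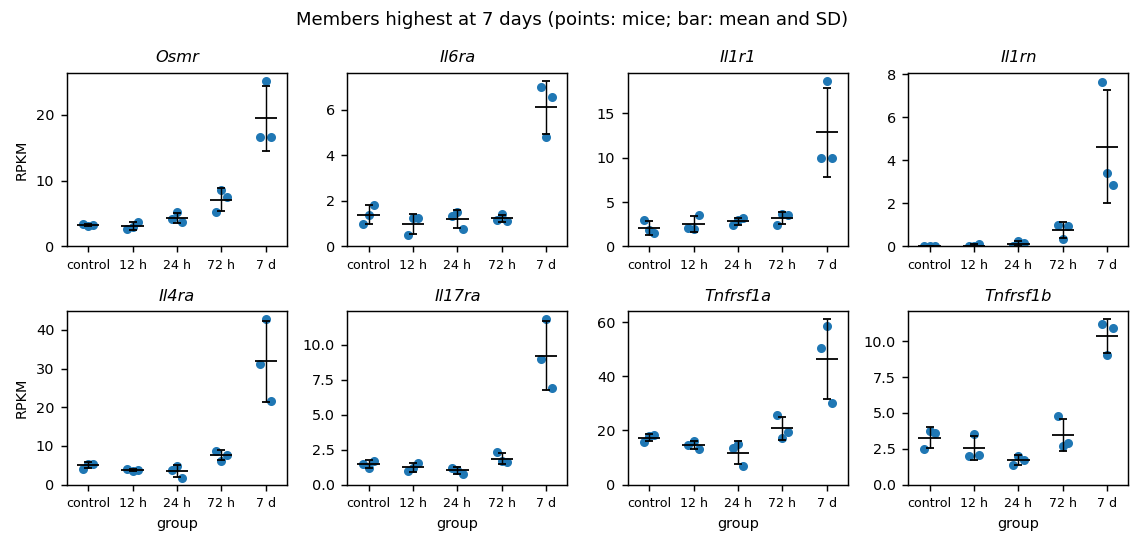
RPKM of 8 members in each mouse (points) with the mean and SD of each group of 3 (bars), by time on doxycycline. In each of the 8 panels the 3 libraries labelled 7 days lie above the other 12 mice.

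Of 10 receptors of the IL-4 and common gamma chain family 4 were tested, and 3 of these were higher in the libraries labelled 7 days, beside 26.7% of all genes. Il4ra, the chain shared by the IL-4 and IL-13 receptors, had 4.08, 5.43 and 5.44 RPKM in the controls, 8.72, 6.20 and 7.72 at 72 hours and 31.2, 42.7 and 21.7 in the libraries labelled 7 days. The last of these differences was 2.42 ± 0.26 (adjusted p = 7.9e-07), and the 72 hour values lay above the controls without passing the test (0.51 ± 0.26, adjusted p = 0.201). Within the 3 shared codes Il4ra was higher at 7 days than at 72 hours by 2.67, 1.77 and 1.98. Its partner Il13ra1 had 7.78, 6.04 and 6.27 RPKM in the controls and 16.5, 20.4 and 15.0 in the libraries labelled 7 days (1.25 ± 0.20, adjusted p = 6.46e-05). The call for Il13ra1 at 24 hours (0.62 ± 0.20, adjusted p = 0.0454) fell to 0.07 after GC correction. Il2rg, the common gamma chain, rose by 0.68 ± 0.18 (adjusted p = 0.00463), and it shares bases with a neighbouring gene model, Gm20489. With the first column of each mouse alone its difference was 0.37 (adjusted p = 0.235), and with the column code as a term it was 0.53 (adjusted p = 0.311).

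Il15, a ligand that sustains lymphocytes and is made by muscle, first rose and then fell. It had 10.2, 15.7 and 11.9 RPKM in the controls, 23.2, 22.2 and 28.3 at 12 hours and 5.45, 6.43 and 4.79 in the libraries labelled 7 days. The 12 hour mice lay above the controls (0.92 ± 0.24, adjusted p = 0.023) and the libraries labelled 7 days below them (-1.04 ± 0.24, adjusted p = 0.00135). The 12 hour call was lost when any single control was left out, with adjusted p of 0.0514 to 0.095, and with the column code as a term (0.46, adjusted p = 0.999). The fall kept its call under each of 23 alternatives. Its receptor Il15ra had 21.6, 21.2 and 17.8 RPKM in the controls and 8.34, 11.2 and 9.72 at 72 hours (-0.98 ± 0.29, adjusted p = 0.0381), a call lost under 11 of 23 alternatives. In the libraries labelled 7 days Il15ra ranged from 7.87 to 24.8 RPKM and overlapped the controls.

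The IL-10 family receptors went in different directions. Il10ra, the chain specific to IL-10 and known mainly from leukocytes, had 0.84, 1.07 and 0.76 RPKM in the controls and 5.17, 3.60 and 7.50 in the libraries labelled 7 days (1.72 ± 0.23, adjusted p = 7.95e-06). The other 12 mice did not exceed 1.27 RPKM. Il10rb, the chain it pairs with, fell from 52.6, 56.8 and 54.9 to 30.1, 23.8 and 26.7 RPKM (-1.01 ± 0.19, adjusted p = 0.000308). Il10rb shares 569 exonic bases on the same strand with Ifnar2, so part of its reads may belong to that gene. Il20rb, a receptor chain for IL-19, IL-20 and IL-24, had 0.33, 0 and 0.46 RPKM in the controls, 3.11, 3.87 and 2.12 at 72 hours and 0.93, 2.37 and 0.56 in the libraries labelled 7 days. It was called at 24 hours (1.01 ± 0.31, adjusted p = 0.0397), at 72 hours (1.67 ± 0.31, adjusted p = 0.00297) and at 7 days (0.80 ± 0.31, adjusted p = 0.0398). The 24 hour value rests on mouse A3262 at 3.00 RPKM, without which it was 0.67 (adjusted p = 0.214), and the 7 day value on A3283, without which it was 0.48 (adjusted p = 0.219). The column code as a term left the 72 hour difference at 1.72 with an adjusted p of 0.0549. Il28ra, now called Ifnlr1, was not called.

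Il3ra, the receptor chain for IL-3, had 2.92, 1.85 and 4 RPKM in the controls and 1.22, 1.53 and 0.67 at 24 hours (-0.86 ± 0.25, adjusted p = 0.0313), and GC correction reduced that to -0.34 (adjusted p = 0.276). From 72 hours to 7 days Il3ra was higher by 0.82 ± 0.25 (adjusted p = 0.0131), with 3.00, 1.65 and 1.66 RPKM against 5.77, 3.49 and 4.11. Il12rb2, a chain of the IL-12 receptor, went from 1.11, 1.72 and 1.47 RPKM at 72 hours to 0.42, 0.46 and 0.24 (-0.82 ± 0.19, adjusted p = 0.00201). Its difference from control at that label was -0.44 ± 0.19 (adjusted p = 0.0569).

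In the IL-17 family a receptor rose and a ligand fell. Il17ra, the chain common to IL-17 receptors, had 1.49, 1.15 and 1.70 RPKM in the controls, 2.30, 1.67 and 1.59 at 72 hours and 8.98, 11.8 and 6.88 in the libraries labelled 7 days (2.04 ± 0.20, adjusted p = 2.76e-07). Within the 3 shared codes it was higher at 7 days than at 72 hours by 2.25, 2.22 and 1.66. The partner chain Il17rc was lower at 12 hours, with 3.65, 4.59 and 4.62 RPKM in the controls against 2.12, 2.02 and 1.37 (-0.90 ± 0.26, adjusted p = 0.0344), and with the column code as a term the difference was -0.001 (adjusted p = 0.999). Il17d, a ligand listed with this family, had 5.86, 6.25 and 6.59 RPKM in the controls, 1.02, 0.33 and 0.64 at 12 hours and 0.68, 1.11 and 0 in the libraries labelled 7 days. Mouse A3278, with the controls' code, had 6.30 RPKM at 72 hours, and the 11 mice with other codes had 0 to 2.41. Il17d was called at 12 hours (-2.14 ± 0.33, adjusted p = 0.00172), at 24 hours (-1.74 ± 0.33, adjusted p = 0.00784) and in the libraries labelled 7 days (-2.24 ± 0.33, adjusted p = 2.36e-05). With the column code as a term the 12 hour difference was -0.34 (adjusted p = 0.999) and the latest was -0.67 (adjusted p = 0.12). From 72 hours to 7 days, within the 3 shared codes, the difference of Il17d was -0.61, -0.68 and -0.76.

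**Figure D3:**
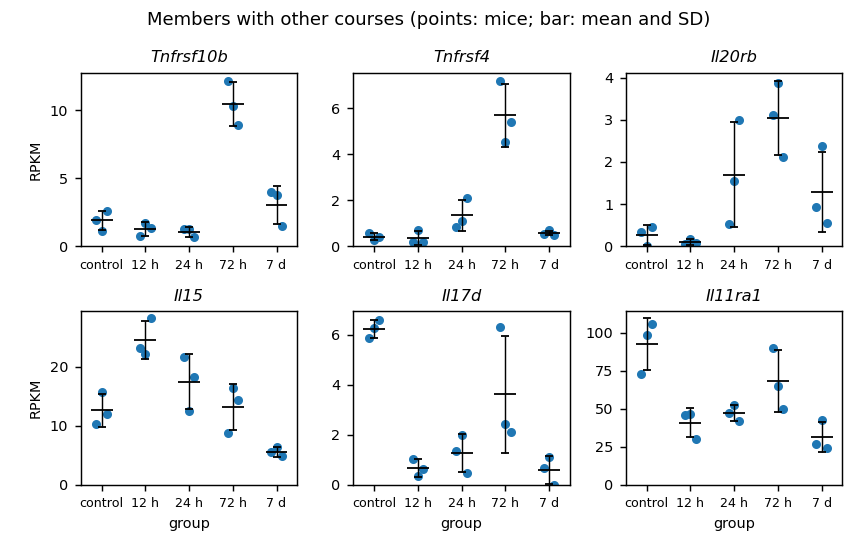
RPKM of 6 members with other courses in each mouse (points) with the mean and SD of each group of 3 (bars). Tnfrsf10b and Tnfrsf4 peak at 72 hours with 8.89 to 12.1 and 4.51 to 7.16 RPKM, and the high 72 hour points of Il17d and Il11ra1 are mouse A3278.

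Among the TNF family ligands 5 of 13 were abundant enough to be tested, and 1 of them rose in the libraries labelled 7 days (20.0%, against 26.7% of all genes). Tnfsf13, the B-cell factor APRIL, had 4.61, 4.24 and 3.13 RPKM in the controls and 10.1, 5.63 and 12.8 at that label (1.02 ± 0.26, adjusted p = 0.00316). With the column code as a term the value was 0.97 (adjusted p = 0.113). Tnfsf12, the ligand TWEAK, was lower at 12 hours, with 8.12, 11.5 and 10.2 RPKM in the controls against 4.99, 4.61 and 4.71 (-0.91 ± 0.23, adjusted p = 0.0225), and after median scaling it was -0.59 (adjusted p = 0.107). Tnfsf12, Tnfsf13 and the read-through gene Tnfsf12-tnfsf13 share exons, so their reads could be split between them. The read-through gene, the death ligand Tnfsf10 (TRAIL) and the B-cell factor Tnfsf13b (BAFF) were not called at any time.

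The TNF receptors gave 4 of 11 tested members higher (36.4%) and 2 lower (18.2%) in the libraries labelled 7 days, against 26.7% and 28.2% of all genes. Tnfrsf1a, the death-domain receptor for TNF, had 15.8, 17.8 and 18.3 RPKM in the controls, 25.6, 17.2 and 19.5 at 72 hours and 50.65, 58.8 and 30.0 in the libraries labelled 7 days (1.32 ± 0.26, adjusted p = 0.000459). Tnfrsf1b, the other TNF receptor, which lacks a death domain, had 2.45, 3.76 and 3.60 RPKM in the controls and 11.2, 9.04 and 10.9 at that label (1.42 ± 0.22, adjusted p = 3.51e-05). Neither receptor's values at that label overlapped those of any other group, and both calls were kept under every alternative run for them. Tnfrsf1b was lower at 24 hours (-0.66 ± 0.22, adjusted p = 0.0471), a call lost under 14 of 21 alternatives.

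Tnfrsf23 and Tnfrsf22, decoy-type receptors for TRAIL that sit beside each other on mm9 chromosome 7 (chr7:150851714-150871777 and chr7:150820711-150822490, - strand), both rose. Tnfrsf23 had 2.58, 0.78 and 1.54 RPKM in the controls and 14.6, 14.5 and 11.1 in the libraries labelled 7 days. Its difference was 2.498 ± 0.28 (adjusted p = 1.5e-06). Tnfrsf22 had 1.46, 0.50 and 0.94 RPKM in the controls and 3.36, 3.49 and 2.90 there (1.14 ± 0.21, adjusted p = 0.000257). These genes are close paralogs and could share reads, as could Tnfrsf26 beside them, which was under the filter with at most 0.34 RPKM in the other 12 mice and 1.33, 1.41 and 1.20 RPKM in the libraries labelled 7 days.

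Tnfrsf10b and Tnfrsf4 peaked at 72 hours. Tnfrsf10b (mm9 chr14:70167279-70184210, + strand), the mouse death receptor for TRAIL, had 1.95, 1.15 and 2.60 RPKM in the controls, 0.67 to 1.75 at 12 and 24 hours, 12.1, 10.3 and 8.89 at 72 hours and 3.97, 3.75 and 1.46 in the libraries labelled 7 days. The 72 hour mice lay above every other mouse. The difference was 2.00 ± 0.27 at 72 hours (adjusted p = 0.000166), and it was lower by 1.55 ± 0.27 at 7 days than at 72 hours (adjusted p = 0.000189). Tnfrsf4 (mm9 chr4:155387952-155390721, + strand), the T-cell costimulatory receptor OX40, had 0.59, 0.29 and 0.39 RPKM in the controls and 0.86, 1.08 and 2.09 at 24 hours. The 72 hour mice had 7.16, 4.51 and 5.38 RPKM and the libraries labelled 7 days 0.55, 0.70 and 0.51. It differed by 2.22 ± 0.22 at 72 hours (adjusted p = 8.43e-06). Both 72 hour calls were kept under each of the 22 alternatives, and in mouse A3278, which shares the controls' code, the values were the highest of the group (12.1 and 7.16 RPKM). The T-cell markers Cd3d, Cd3e, Cd3g, Cd4, Cd8a and Lck summed to 0.64 to 1.21 RPKM at 72 hours and to 0.59 to 1.78 in the controls.

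The fallers among the TNF receptors were Tnfrsf25, a death-domain receptor known from lymphocytes, and Tnfrsf14, the receptor for LIGHT. Tnfrsf25 had 2.21, 1.72 and 2.5 RPKM in the controls and 0.61, 0.24 and 0.19 in the libraries labelled 7 days (-1.23 ± 0.24, adjusted p = 0.000451). With the column code as a term it was -0.27 (adjusted p = 0.62). Tnfrsf14 went from 3.41, 2.80 and 3.68 to 2.47, 0.82 and 1.71 RPKM (-0.73 ± 0.23, adjusted p = 0.0136), without mouse A3283 the difference was -0.48 (adjusted p = 0.0904), and with the column code it was -0.18 (adjusted p = 0.744). Tnfrsf12a, Tnfrsf18 and Tnfrsf21 were called in the F test without being called in a single comparison. Tnfrsf12a, which overlaps Hcfc1r1 by 78 bases on the other strand, had 74.0, 55.6 and 77.5 RPKM in the libraries labelled 7 days against 34.5 to 39.3 in the controls (0.87 ± 0.37, adjusted p = 0.0561). With the column code as a term its differences were 1.43 at 72 hours (adjusted p = 0.0212) and 2.31 at 7 days (adjusted p = 0.000394). Tnfrsf12a was also at 101 RPKM in mouse A3278 and at 31.2 and 38.0 in the other 72 hour mice. Both of these differences from control rest on A3278, through which the fit with the column code reaches the controls. From 72 hours to 7 days, a comparison without the controls, that fit gave 0.88 (adjusted p = 0.00314). Without the code term the difference was 0.46 (adjusted p = 0.332). Within the 3 shared codes Tnfrsf12a was higher at 7 days than at 72 hours by 0.82, 0.43 and 1.33.

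Of the 63 members under the filter, 15 reached 1 RPKM in some mouse and 48 did not. In a fit with no filter, over 16041 genes, 20 of the 63 were higher in the libraries labelled 7 days and 2 were lower, against 22.5% and 19.7% of all genes. The members' shares in that fit were 31.7% higher and 3.17% lower. The 2 sets are unlike, since the 63 all had a mean under 1 RPKM while 10868 of the 16041 genes had more. A member this low has little room to fall, so the shares are a description. At 72 hours 1 of the 63 was higher (Lif), against 4.48% of all genes. Il18, a ligand of the IL-1 family, was listed at 0 in the 3 controls and at 2.31, 1.495 and 2.56 RPKM in the libraries labelled 7 days (1.63 ± 0.13). Il1r2, the decoy receptor for IL-1, was at 0, 0 and 0.05 RPKM in the controls and at 3.78, 3.66 and 1.73 at that label (1.95 ± 0.23). Il7r, a receptor of lymphocytes, was at 0.24, 0.11 and 0.12 against 2.86, 1.43 and 3.97 RPKM (1.64 ± 0.19).

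Il21r (1.20 ± 0.15), Tnfrsf11a (the receptor RANK, 1.15 ± 0.16), Il8rb (the chemokine receptor Cxcr2, 0.78 ± 0.09) and Tnfrsf13b (0.70 ± 0.12) were also higher at that label in this fit. The members that fell were Tnfrsf19, from 0.94, 1.34 and 1.69 RPKM to 0.31, 0 and 0.31 (-0.94 ± 0.16), and Il2ra (-0.54 ± 0.19, adjusted p = 0.0401), whose groups overlapped. Il17rd, Il4i1 (an amino acid oxidase that overlaps other genes) and Tnfsf9 were not called. The estimated depth leaves such values on few reads, and they are uncertain at this depth.

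The classic inflammatory ligands stayed near the lower end of the scale. Il6 had 0.16, 0.17 and 0 RPKM in the controls, 0, 2.02 and 0.67 at 72 hours and 0.77, 1.04 and 1.48 in the libraries labelled 7 days (0.91 ± 0.29, adjusted p = 0.0229). Il1b had 0.19, 0.49 and 0 RPKM in the controls, 1.40, 0.71 and 0.79 at 72 hours and 1.23, 3.28 and 0.74 at the later label (1.08 ± 0.30, adjusted p = 0.0106). Lif had 0, 0 and 0.12 RPKM in the controls and 0.70, 0.26 and 0.49 at 72 hours (0.50 ± 0.11, adjusted p = 0.0182). In the libraries labelled 7 days Lif had 0.565, 0.20 and 0.16 RPKM (0.32 ± 0.11, adjusted p = 0.0365). Tnf had 0.07, 0.15 and 0.40 RPKM in the controls, 0.86, 0.23 and 0.86 at 72 hours and 0.45, 0.45 and 0.31 in the libraries labelled 7 days, and it was not called. Osm, the ligand of Osmr, had at most 0.50 RPKM in any mouse and was not called.

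**Figure D4:**
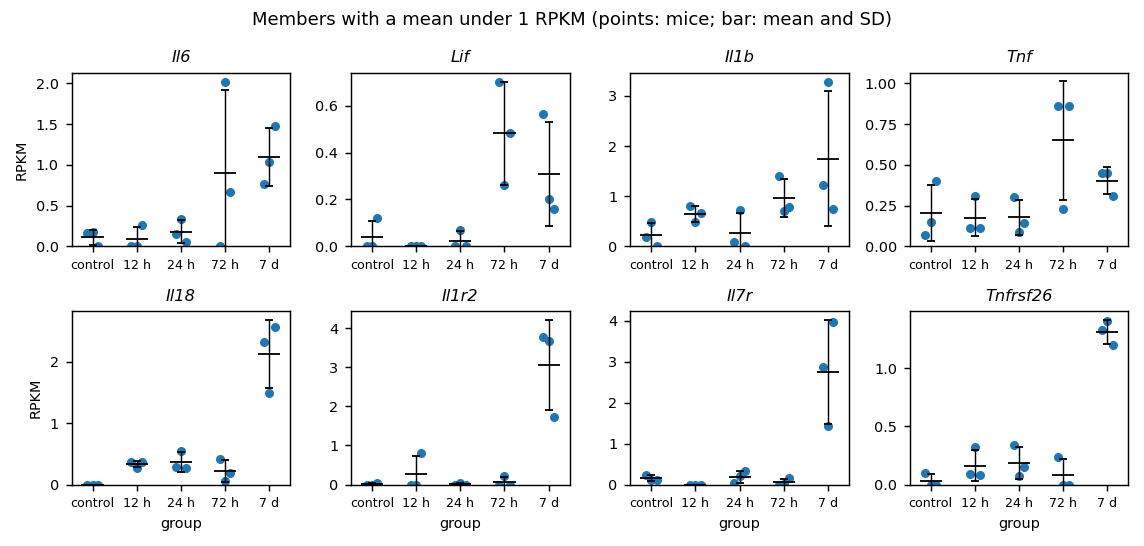
RPKM of 8 members with a mean under 1 RPKM in each mouse (points) with the mean and SD of each group of 3 (bars). Il18, Il1r2, Il7r and Tnfrsf26 are high in the libraries labelled 7 days, whereas Lif and Tnf have their highest mice at 72 hours.

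Genes that carry the signals of these receptors were counted from lists of the pathways. Of 41 genes below interleukin and gp130 receptors, 37 were tested. At 12 and 24 hours 9 and 8 of them were lower (24.3% and 21.6%), against 12.7% and 10.6% of all genes. Counts and differences of listed genes are given from the fit of the 5 groups alone, without the alternatives reported for the members. Under those, the members' 7 calls at 12 hours became 2 after median scaling and 0 with the column code as a term. At 72 hours 5 were higher and 2 lower (13.5% and 5.41%, against 6.39% and 5.22%). The libraries labelled 7 days had 11 higher and 9 lower (29.7% and 24.3%), close to the 26.7% and 28.2% of all genes. Socs3, a feedback inhibitor of gp130 signalling, had 1.93, 1.75 and 2.24 RPKM in the controls, 10.4, 9.01 and 7.47 at 72 hours and 13.1, 19.3 and 9.68 in the libraries labelled 7 days, with differences of 1.74 (adjusted p = 0.00602) and 2.29 (adjusted p = 5.1e-05). Clcf1, a gp130 ligand, rose by 1.12 at that label (adjusted p = 0.000138). Ctf1, the gp130 ligand cardiotrophin, fell there from 5.02, 5.48 and 8.53 RPKM to 0.58, 0.38 and 0.86 (-2.17, adjusted p = 5.06e-07). The transcription factors Stat5a and Stat5b were lower at each of the 4 times, by -1.60 and -1.78 in the libraries labelled 7 days, while Stat3 was called at 12 hours alone (-0.75, adjusted p = 0.0378).

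Of 31 genes found of the list below TNF receptors, 30 were tested. At 12 and at 24 hours 2 of them were lower (6.67%, against 12.7% and 10.6% of all genes). At 72 hours 3 were higher, against 6.39% of all genes, and the libraries labelled 7 days had 13 higher and 2 lower (43.3% and 6.67%, against 26.7% and 28.2%). Ripk1, a kinase at the TNF receptor complex, had 1.95, 2.67 and 2.67 RPKM in the controls, 4.14, 4.38 and 4.29 at 72 hours and 9.18, 9.57 and 9.46 in the libraries labelled 7 days (1.61, adjusted p = 1.2e-06). Birc3 (1.44), the necroptosis kinase Ripk3 (1.36) and Casp8 (1.21) also rose at that label, and Map3k5, a stress kinase, fell (-1.13). Of 13 further TNF superfamily genes found, 4 were tested, of which 2 were higher at 72 hours and 3 in the libraries labelled 7 days, where the shares of all genes were 6.39% and 26.7%. Eda2r, a receptor for ectodysplasin, had 0.21, 0.93 and 0.69 RPKM in the controls, 11.1, 16.2 and 15.1 at 72 hours and 1.76, 3.04 and 2.17 in the libraries labelled 7 days (3.24 at 72 hours, adjusted p = 3.12e-07). As for Tnfrsf10b and Tnfrsf4, its highest values were those at 72 hours. Eda2r was under 1 RPKM in each control and passed the filter through the induced groups, so the counts over these 4 genes are a description. Fas, a death receptor, had 6.32, 5.25 and 1.89 RPKM in the controls and 12.6, 21.0 and 13.5 at 72 hours (1.68, adjusted p = 0.00233).

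Markers of other cells differed between the groups too. The 9 macrophage markers found summed to 69.3 to 88.1 RPKM in the controls and 66.1 to 129 at 72 hours. In the libraries labelled 7 days they summed to 436 to 622 RPKM, and 9 of 9 were higher. Among all genes tested 26.7% were higher and 28.2% lower at that label. The 4 fibroblast markers summed to 378 to 418 RPKM in the controls and 909 to 1074 at that label, with 3 of 4 higher. The 6 neutrophil markers summed to 0.62 to 2.56 RPKM in the controls, 1.82 to 9.49 at 12 hours and 22.0 to 30.9 at that label. Of these 6, 3 were tested. At 12 hours 1 of the 3 was higher, against 0.524% of all genes, and at that label 3 were. The 6 cardiomyocyte markers fell from 20996 to 22369 RPKM to 5259 to 6519, with 4 of 6 lower, and the 6 endothelial markers from 195 to 210 RPKM to 140 to 169. The T-cell sum rose from 0.59 to 1.78 RPKM to 8.16 to 14.4, nearly all of it Cd3e, while Cd3d, Cd3g, Cd8a and Lck had at most 0.51 RPKM at that label. The B-cell markers summed to 0.70 to 0.87 RPKM in the controls and 0.57 to 0.85 at that label, where Ms4a1 had at most 0.02. The erythroid markers summed to 808 to 1263 RPKM in the controls and 37.3 to 296 at that label, with 2 of 2 tested lower. The 3 atrial markers summed to 65.3 to 78.7 RPKM in the controls and 12.1 to 67.0 at 72 hours. At 72 hours 2 of 3 were lower, against 5.22% of all genes, and mouse A3278 had the highest sum of that group. The part of these markers in the changes of the members was not tested. In whole ventricle RNA a change in the number of cells of a type and a change in RNA per cell cannot be told apart.

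**Figure D5:**
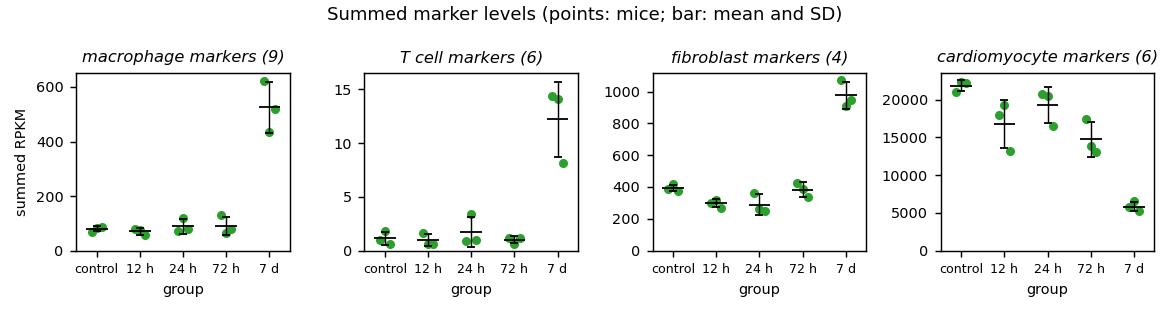
Summed RPKM of the macrophage, T-cell, fibroblast and cardiomyocyte markers in each mouse (points) with the mean and SD of each group of 3 (bars). The libraries labelled 7 days lie above the other mice in the first 3 panels and below them in the last.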

How the data were processed

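Polyadenylated RNA from the ventricles of 15 mice was sequenced as paired ends, and the replicates are separate mice whose numbers pair none across groups. The authors deposited RPKM per gene, rounded to 2 decimals, and per the submitters' processing notes used TopHat, Bowtie and mm9. Versions, read counter and strand setting: not given in the sources used here. There are 20 columns, and the 2 columns of each of 5 mice were averaged. Depth was inferred, without counts, from the step between values of 63 olfactory receptor genes, and 59 of 60 simulated columns came within 5%. A gene of 1 kilobase at 1 RPKM thus rests on about 16.4 to 51.6 reads.

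One limma fit (version 3.58.1, R 4.3.3, with the trend option of eBayes) of log2(RPKM + 1) held the 5 groups of 3, with 10 residual and 7.12 prior degrees of freedom. On simulated data for the 7 day comparison over 10868 genes it recovered 79% of log2 changes of 1 and 100% of changes of 2. In that simulation 100 genes of each size were changed, and 7 other genes were called. The simulated data had normal noise and no effect of the column code, so recovery in the real comparisons may differ. The fit with the column code used 16 columns without the 24 hour group, took the mouse as a random block (correlation 0.283) and reached the controls through mouse A3278. With 3 mice against 3 an exact permutation test cannot go below p = 0.1, so none was run. Members, gene lists and tests were chosen with earlier results of these data known. Named are the members past the threshold in any test, the 12 most abundant, those under the filter that reach 1 RPKM, and fixed IL-6, IL-1 and TNF system genes. Symbols are those of the table. Positions and overlaps on mm9 come from GENCODE vM1. Listed genes were looked up under the listed symbols alone, so Lyz2, Xiap, Tab1, Tab2, Tab3 and Cd40 were not counted, and some genes counted in the lists are not reported here by name.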

Additional observations from a re-analysis of the deposited data

Results flagged for a closer look

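The effects at 72 hours and at 7 days, each against the same controls, differed for 29 members by the direct limma test of the 2 times (adjusted p under 0.05), which is the comparison described above. The difference, 7 days minus 72 hours on the log2 scale, was positive for Tnfrsf23 (2.41), Il4ra (1.904), Il17ra (1.82), Il10ra (1.69), Il1r1 (1.68), Il6ra (1.66), Il1rn (1.61), Tnfrsf1b (1.38), Osmr (1.33), Il1rl2 (1.10), Tnfrsf1a (1.09) and Il33 (1.07). It was smaller for Tnfrsf22 (1.01), Tnfsf13 (0.93), Il13ra1 (0.90), Il1rap (0.84), Il3ra (0.82) and Il2rg (0.68). It was negative for Tnfrsf4 (-2.06), Tnfrsf10b (-1.55), Il17d (-1.48), Tnfrsf25 (-1.12), Il18bp (-1.12), Il11ra1 (-1.11), Il15 (-1.08), Il20rb (-0.87), Il12rb2 (-0.82), Tnfrsf14 (-0.63) and Il10rb (-0.61). For Tnfrsf4 and Tnfrsf10b the difference is a return from a high level at 72 hours. The 72 hour group includes mouse A3278, which shares the controls' column code. Without A3278 the calls of Il17d, Il11ra1 and Tnfrsf25 were kept. The limma calls lost without A3278 were Tnfrsf14 (-0.43, adjusted p = 0.168), Il10rb (-0.49, adjusted p = 0.0618) and Il20rb (-0.85, adjusted p = 0.0671). Groups of 3 were too small for an outlier check.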

How the results depend on the processing

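Each count of called members (7 at 12 hours, 7 at 24 hours, 6 at 72 hours, 25 at 7 days, 29 between 72 hours and 7 days, and 35 in the F test) was recomputed under a pseudocount of 0.1, no filter, a mean of at least 5 RPKM, median ratio scaling, quantile normalization, a GC correction, a term for the column code, a single column per mouse (its first), and without each mouse in turn. The column code could not be fitted for 24 hours, whose codes occur in no other group. At 12 hours the count was 2 after median scaling, 3 after quantile normalization and 0 with the column code. At 24 hours it was 2 with no filter, 3 at 5 RPKM, 4 after quantile normalization and 4 after GC correction. At 72 hours it was 2 at 5 RPKM and 3 with the column code. At 7 days it was 47 with no filter, 10 at 5 RPKM and 16 with the column code. Between 72 hours and 7 days it was 44 with no filter and 10 at 5 RPKM, and in the F test 14 at 5 RPKM. With no filter all 107 members are tested, and at 5 RPKM 17. For the other changes of the counts the cause was not tested.

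Leaving out each mouse in turn gave 1 to 10 calls at 12 hours, 0 to 11 at 24 hours, 4 to 7 at 72 hours, 23 to 28 at 7 days, 27 to 30 between 72 hours and 7 days, and 31 to 35 in the F test. Without control A3280 no member was called at 24 hours and 1 at 12 hours. Without A3278 of the 72 hour group 11 were called at 24 hours. No call changed sign under these alternatives. Calls kept under every alternative run for them numbered 0 of 7 at 12 hours, 0 of 7 at 24 hours, 2 of 6 at 72 hours (Tnfrsf10b and Tnfrsf4), 14 of 25 at 7 days and 22 of 29 between 72 hours and 7 days. Depth limits the members near or under 1 RPKM most. No paired analysis was possible because the mouse numbers are not shared between groups.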
